A study of Mus musculus with 36 samples.

Results

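The first and the last day of a differentiation course of Xmas mouse embryonic stem cells (mESCs) were compared, gene family by gene family. The members are the 4 RNA-seq libraries of day 0 and the 4 of day 8, chosen by their day labels alone, so that 8 of the 36 libraries of the course enter the contrast. Both groups are female C57/Bl6 mESCs of the Xmas lines X14 and X18. By design these lines carry a GFP reporter at Hprt of one X chromosome and mCherry at Hprt of its homologue. The paper describes a growing share of single positive cells in such cultures, likely XO. Whether the cells of each library here kept both X chromosomes is not given in the labels. Day 0 cells were kept in 2i and LIF, and day 8 cells had been weaned stepwise into serum medium (DME HiHi) without LIF. The change of medium and the time in culture therefore go together in this comparison and cannot be told apart. Each day has 4 libraries, in the order X14 double, X14 single, X18 double and X18 single (replicates 1 to 4), in which the meaning of double and single is not explained by the labels. Values of single libraries are given in this order. The study treats the libraries of a day as independent replicates, and they come from both lines. Whether libraries of the same line came from separate cultures is not given in the labels, so that within a line the spread behind the p-values may be technical.

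Naive mESCs resemble the inner cell mass of the blastocyst and are held in that state by LIF, which acts through STAT3, and by inhibitors of MEK and GSK3. When these are withdrawn, a network of transcription factors around Nanog, Esrrb and Klf4 is shut down, DNA methylation rises, and the cells pass through a state like the epiblast before they enter lineages. In serum without further guidance the outcome is mixed, and genes of epithelium, mesoderm and extraembryonic tissue can all appear.

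One pair of libraries went against the order of its labels. The median level of X-linked genes over that of the autosomes, as a deviation from the gene means in log2, was -0.72, 0.63, 0.61 and -0.35 in replicates 1 to 4 of day 0 and 0.17, -0.25, 0.00 and -0.26 on day 8. In X18 on every day of the course, and in X14 on days 1 to 8, the double library lay above the single one. In X14 on day 0 the library labelled double lay below the one labelled single, and whether these labels were exchanged was not tested. The comparison of the days uses neither label, and values of line X14 as a whole do not depend on them. The pairing by replicate number and the comparison of the lines do, and for these the values without both libraries or without the labels are given.

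In genes, 756136 to 1916784 reads were counted per library on day 0 and 730127 to 1844587 on day 8. Levels are given as RPM, reads per 1000000 with the gene's length undone, after all libraries were brought to the same 75th percentile. A floor of 3 reads corresponded to 1.32 to 4.04 RPM over the 8 libraries. Floors and read intervals cover counting error only. In 14612 of the 25965 listed genes, at least 1 RPM was reached in at least 4 of the 36 libraries, and these genes were tested. A gene was called when the adjusted p of limma was under 0.05 and the log2 fold change, day 8 minus day 0, was at least 1 in either direction. By this rule 2908 genes (19.9% of those tested) were higher and 2138 (14.6%) lower on day 8, together 34.5%. Without the scaling the split was 3485 higher and 1629 lower, and over all genes the median difference (log2) moved from 0.02 to 0.23. In 2297 genes (15.7%) every day 8 library lay above every day 0 library, and in 1808 (12.4%) every one lay below. As these are bulk libraries, fewer cells of a type and less RNA per cell cannot be told apart in any value that follows.

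The gene H19 (chr7:142575529-142578143), an imprinted noncoding RNA next to Igf2, and Pou5f1 (chr17:35506037-35510776), which encodes the pluripotency factor OCT4, mark the ends of the course. H19 measured 0.441, 0.910, 1.35 and 3.78 RPM on day 0 and 18970.3, 7231, 23802 and 7844 RPM on day 8, so that the libraries of the days did not overlap (log2 fold change 13.37, SE 0.58, adjusted p = 2.88e-18, limma). Pou5f1 measured 779, 1266, 1978 and 1410.4 RPM on day 0 and 78.1, 214, 150.5 and 352 RPM on day 8. It fell in all 4 libraries but remained well above the floor on day 8 (log2 fold change -2.90, SE 0.31, adjusted p = 2.51e-09). All 12 listed markers of naive pluripotent cells were tested and called lower (median log2 fold change -3.38), among them Esrrb (from 397 ± 231 to 19.7 ± 9.47 RPM), Tfcp2l1 (from 493 ± 427 to 49.1 ± 35.1 RPM) and Klf4 (from 149.7 ± 52.9 to 19.6 ± 16.3 RPM). In these and the later values n = 4 libraries a day, and values are means ± SD.

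The 5 classes of genes differed in direction. Of 307 tested transcription factor genes 102 were higher and 41 lower on day 8 (33.22% and 13.36%, median log2 fold change 0.49). Of 318 signalling genes 142 were higher and 33 lower (44.65% and 10.38%, median 1.10), and of 320 adhesion, matrix and cytoskeleton genes 173 were higher and 29 lower (54.06% and 9.06%, median 1.32). In metabolism the lower genes prevailed, with 49 higher and 119 lower of 397 tested (12.34% and 29.97%, median -0.54). Chromatin genes were near balance, with 49 higher and 58 lower of 322 (15.22% and 18.01%, median 0.05). This class includes a list of germline genes that chromatin holds silent. Of its 35 tested genes 2 were higher and 18 lower, so the class counts do not describe chromatin regulators alone. All genes tested had a median of 0.02. In all, 2136 genes of 71 families were listed and 1663 tested, so that 473 genes did not reach the limit on low values. A gene that reaches it on one day alone has to differ between the days, so these shares describe the tested genes and not every listed one. The annotation and the strand used in counting are not given in the sources used here, and where a table entry overlaps another feature the reads may include those of the latter. Beside the cases stated with their values this concerns Cbx7 (Apobec3), Dnmt3l (Aire), Stat3 (Stat5a), Sycp3 (Chpt1), Grhl2 (Gm16136), Notum (Gm11768), Slc7a5 (Gm20388), Zeb1 (Gm10125) and Col4a1 (Gm15418).

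**Figure D1:**
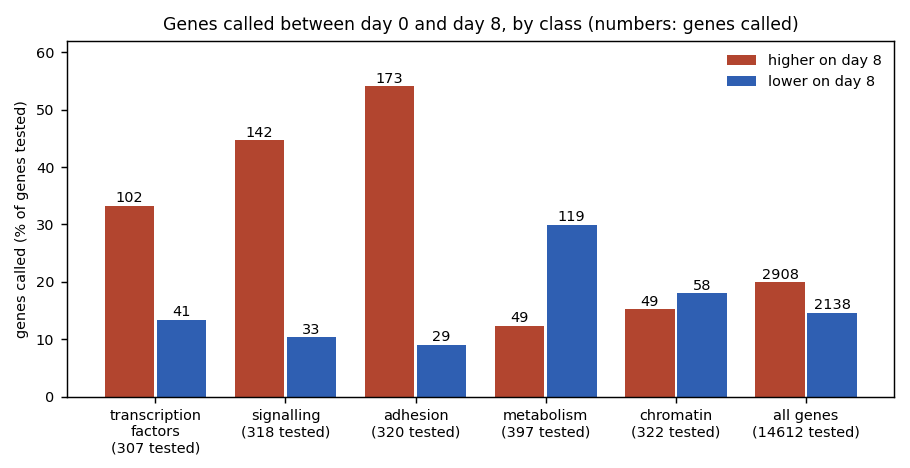
Share of the tested genes called higher (red) or lower (blue) on day 8 than on day 0 in each of the 5 classes and over all 14612 genes tested, in percent, with the number of called genes above each bar. Adhesion had the highest share called higher (173 of 320 genes) and metabolism the highest share called lower (119 of 397).

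The length of a gene's exons moved with the direction of change. Of 5 groups of equal size, the genes with the shortest exons (78 to 1836 bases) had a median log2 fold change of -0.43, and 24.52% were called lower. In the group with the longest (6011 to 116824 bases) the median was 0.39, and 8.22% were called lower. The X18 double library of day 0 stood apart most, with a median deviation from the gene means of 0.69 in the shortest group and -0.60 in the longest, and the X14 double library of day 0 went the opposite way (-0.25 and 0.22). With the length trend of each library removed, 2692 genes (18.4%) were higher and 2218 (15.2%) lower. Chromatin genes then counted 40 higher and 76 lower (median -0.14), metabolism 48 and 109 (median -0.51), adhesion 158 and 33 (median 1.11), signalling 138 and 38 (median 0.96) and transcription factors 91 and 44 (median 0.36). Without both X18 libraries of day 0, 27 chromatin genes were higher, and without both X14 libraries of day 0 there were 79. The part of length in the results was not tested beyond these values.

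**Figure D2:**
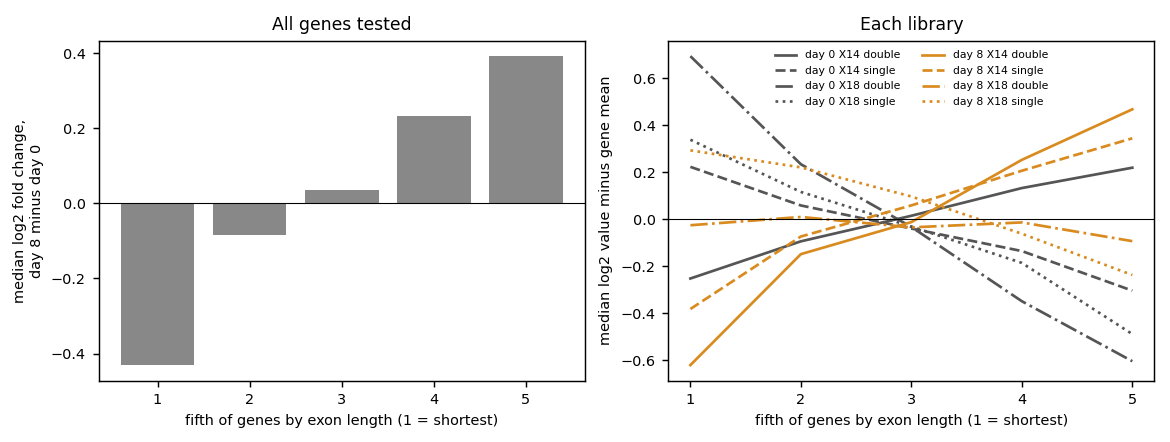
Left, median log2 fold change (day 8 minus day 0) of the genes tested in 5 groups of rising exon length. Right, median deviation (log2) of each of the 8 libraries from the gene means in the same groups, day 0 in grey and day 8 in orange. The medians rise from -0.43 to 0.39, and the X18 double library of day 0 runs from 0.69 down to -0.60.

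The family medians are set side by side in the plot of log2 fold changes by family. Counts of each family are to be read against all genes tested, of which 19.9% were higher and 14.6% lower. The WNT ligands and AP-1 genes had the highest medians of the families with 10 or more genes tested, and the one-carbon and germline genes the lowest.

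**Figure D3:**
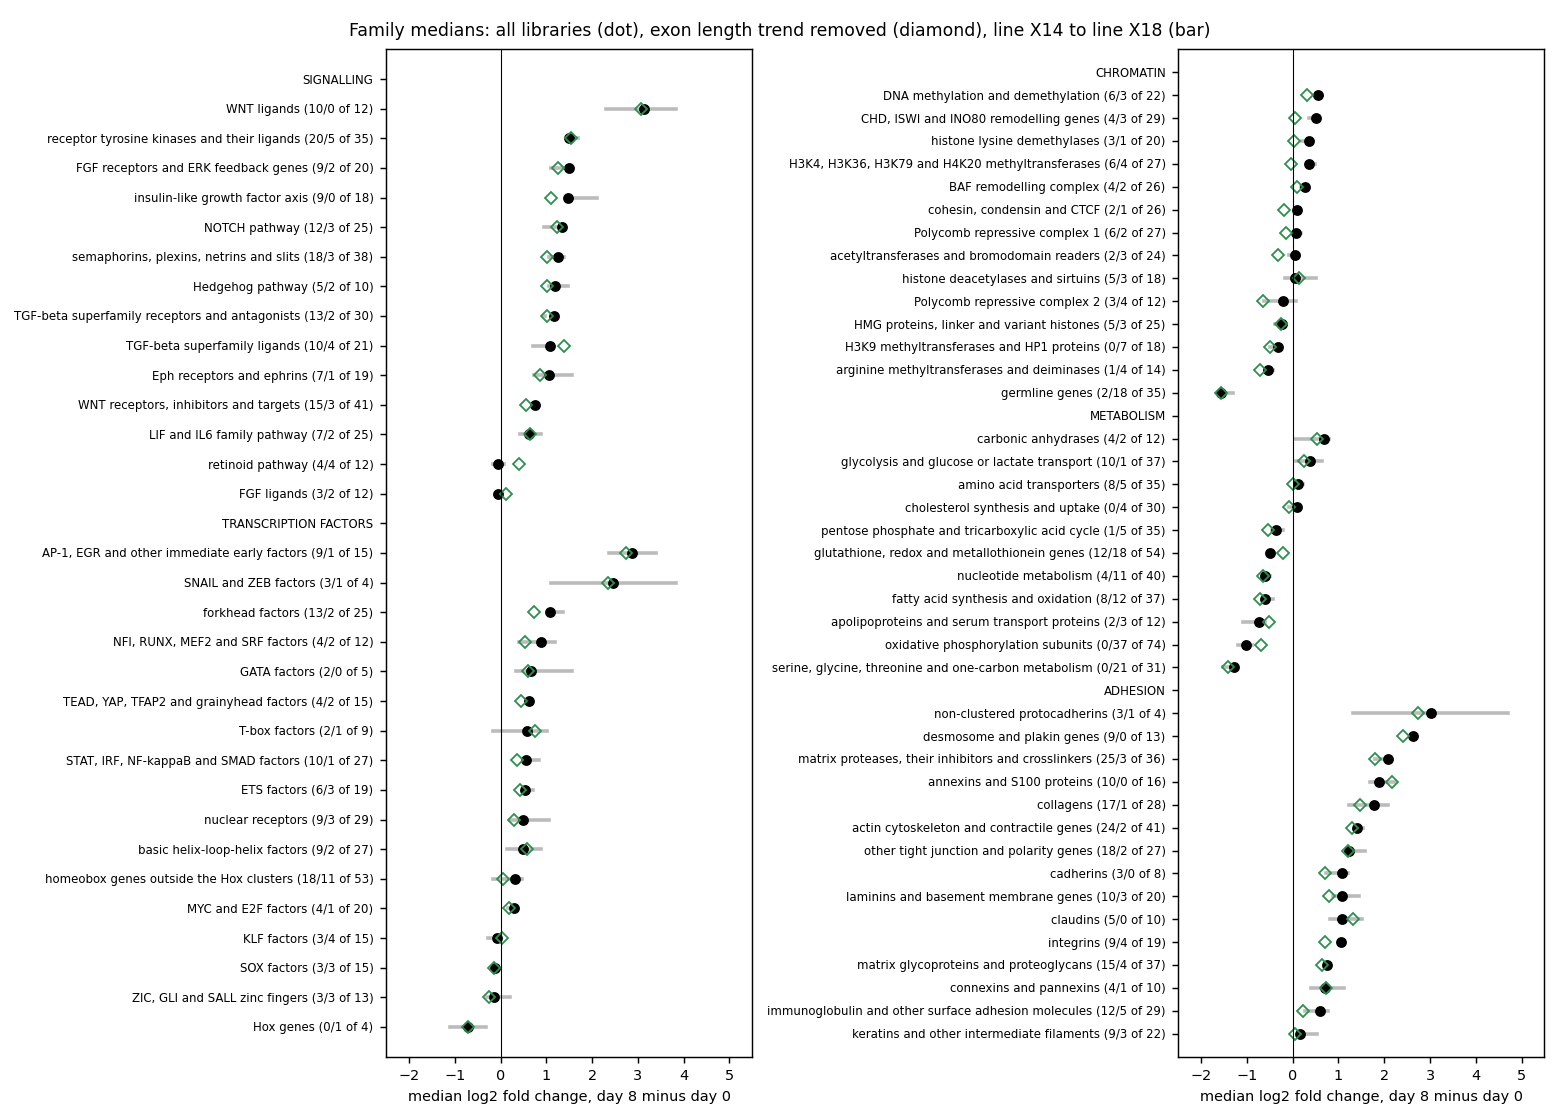
Median log2 fold change (day 8 minus day 0) of the tested genes of each family, with the genes called higher, called lower and tested in brackets. Dots are the fit of all libraries, diamonds the same after removal of the length trend, and bars span the medians of lines X14 and X18. The WNT ligands stand at 3.14 and the one-carbon genes at -1.29.

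Among transcription factors, the largest falls under the rule for naming genes (at most 1 gene a family) were in Nr0b1, Obox6 and Spic, and the largest rises in Hand1, Fosl2 and T. Nr0b1 (chrX:86191764-86195947), an orphan nuclear receptor of the naive network, measured 86.4, 177, 129 and 93.5 RPM on day 0 and 0.982, 0, 0.800 and 0 RPM on day 8. With 3 reads left in all on day 8, it was 265-fold lower in reads, 95% counting interval 90.3 to 1287, adjusted p = 6.11e-16. Obox6 (chr7:15833246-15839678), an oocyte and early embryo homeobox gene, measured 44.1, 78.7, 95.7 and 48.1 RPM on day 0 and 0.982, 0, 0.800 and 0 RPM on day 8, again without overlap (134-fold lower in reads, 95% counting interval 45.5 to 652, adjusted p = 2.64e-10). Spic (chr10:88674772-88685015), an ETS factor known from macrophages, was read in every day 0 library and in no day 8 library, at 10.6, 23.6, 27.0 and 16.0 RPM on day 0 and no reads in the 4 libraries of day 8 (at least 8.93-fold lower, adjusted p = 5.92e-06). In the other direction, Hand1 (chr11:57828705-57832818), a basic helix-loop-helix factor of trophoblast and of lateral mesoderm, had no reads in the 4 libraries of day 0 and 98.2, 30.3, 67.2 and 18.2 RPM on day 8. The day 8 double libraries exceeded the single library of the same line (at least 22.4-fold higher, adjusted p = 2.71e-07). Fosl2 (chr5:32136472-32157831), an AP-1 subunit, had 0.441, 0.455, 0 and 0 RPM on day 0 and 75.1, 38.9, 44.8 and 23.9 RPM on day 8 (155-fold higher in reads, 95% counting interval 42.7 to 1288, adjusted p = 1.49e-13). The mesoderm and streak factor T (chr17:8434423-8442496) had 0.881, 0.910, 0 and 0 RPM on day 0 and 32.4, 170.4, 14.4 and 66.1 RPM on day 8, here with the single library of each line above the double one (log2 fold change 5.65, SE 0.63, adjusted p = 7.07e-09).

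The pluripotency side of the homeobox genes outside the Hox clusters was more than Pou5f1. Of 53 tested genes 18 were higher and 11 lower (median 0.32). Nanog, a core pluripotency factor, fell from 2080.1 ± 777 to 144 ± 92.6 RPM, and Hesx1, a pituitary and epiblast factor, fell from 17.8 ± 4.79 RPM to 0 reads in any library (at least 8.23-fold). The surface ectoderm factor Dlx3 rose from 0.885 ± 1.48 to 62.8 ± 38.9 RPM, Msx2 from 0.220 ± 0.441 to 37.0 ± 22.0 RPM and Otx2, the factor of primed epiblast and forebrain, from 0.554 ± 0.834 to 41.7 ± 27.8 RPM. The trophoblast and gut factor Cdx2 rose from 0.564 ± 0.676 to 6.99 ± 4.55 RPM, on 3 reads in all of day 0. Of 39 listed Hox genes, which pattern the body axis, only 4 reached the limit on low values, and none of these was called higher and 1 was called lower. GATA factors had 2 higher of 5 tested. Gata2, of trophoblast and blood, rose from 2.35 ± 2.03 to 110.4 ± 86.2 RPM, whereas the endoderm factors Gata4 (2.91 ± 4.15 RPM on day 0 and 0.801 ± 1.29 RPM on day 8) and Gata6 (0 RPM on day 0 and 0.791 ± 1.58 RPM on day 8) were near the floor on both days.

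Nuclear receptors (9 higher and 3 lower of 29 tested) contained both sides. Esrrb and Nr5a2, which hold up Pou5f1 and Nanog expression in naive cells, fell, the latter from 63.3 ± 14.6 to 1.05 ± 1.31 RPM. Pparg, the receptor of fat cells and placenta, rose from 0 reads in any library to 29.6 ± 23.8 RPM (at least 12.4-fold), and its partner Rxra rose from 13.6 ± 9.16 to 92.0 ± 62.6 RPM. Nr2f2, of mesenchyme and trophoblast, rose from 0 reads in any library to 9.75 ± 4.43 RPM (at least 4.08-fold). The liver and visceral endoderm receptor Hnf4a, with 1 read in all, was not tested. KLF factors had 3 higher and 4 lower of 15. The naive factors Klf4 and Klf2 fell, Klf2 from 147 ± 34.9 to 19.9 ± 11.9 RPM, while Klf6 rose from 42.3 ± 4.24 to 283 ± 69.2 RPM and Klf7 rose from 1.78 ± 2.66 to 22.8 ± 8.44 RPM. SOX factors had 3 higher and 3 lower of 15. Sox2, the partner of OCT4, fell from 365 ± 113 to 45.5 ± 13.1 RPM, and the annotation puts the antisense host Sox2ot over it, so that reads of the pair cannot be told apart. Sox4, a factor of many progenitors, rose from 7.83 ± 5.22 to 64.2 ± 18.4 RPM, and the endoderm factors Sox17 (0.682 ± 1.36 RPM on day 0 and 1.59 ± 1.57 RPM on day 8) and Sox7 (0.570 ± 0.438 RPM on day 0 and 0 RPM on day 8) were at or near 0.

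Immediate early genes and the Id inhibitors held many of the calls. Of 15 AP-1, EGR and related genes 9 were higher and 1 lower (median 2.88). Jun rose from 4.51 ± 2.61 to 53.7 ± 11.2 RPM, Fos from 1.12 ± 1.10 to 24.2 ± 12.3 RPM and Batf3, a partner of Jun in immune cells, from 0.110 ± 0.220 to 16.9 ± 9.01 RPM. Ier2, an immediate early gene as well, fell from 68.8 ± 12.4 to 25.1 ± 8.80 RPM. Egr1 was at 2.33 ± 3.58 RPM on day 0 and 5.84 ± 3.6 RPM on day 8 (adjusted p = 0.0522, and 0.0301 with the replicate block, but 0.421 when both X14 libraries of day 0 were left out of that fit). Of 27 basic helix-loop-helix genes 9 were higher and 2 lower (1 lower without the X14 double library of day 8). The Id proteins, which lack a DNA-binding part and block other factors of the family, are targets of BMP signalling. Id1 rose from 0.350 ± 0.450 to 43.1 ± 12.2 RPM, Id2 from 3.38 ± 1.12 to 73.2 ± 17.7 RPM and Id3 from 4.45 ± 3.13 to 66.2 ± 19.2 RPM. Hes1, a NOTCH target, was at 33.8 ± 11.4 RPM on day 0 and 31.2 ± 15.8 RPM on day 8. Myc rose from 0.554 ± 0.834 to 37.3 ± 18.3 RPM, and the growth-restraining Mxd4 rose from 0.338 ± 0.434 to 33.1 ± 25.9 RPM.

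Forkhead factors had 13 higher and 2 lower of 25 tested (median 1.08). Foxo4, which answers insulin signalling, rose from 30.1 ± 9.21 to 231 ± 77.5 RPM, and Foxk1, a regulator of glycolysis and autophagy genes, rose from 7.08 ± 5.80 to 47.5 ± 20.2 RPM. Foxj1, the factor of motile cilia, rose from 0 reads in any library to 15.7 ± 2.56 RPM (at least 6.58-fold), and Foxa2, of endoderm and node, from 0 reads in any library to 8.95 ± 6.66 RPM (at least 3.74-fold). Foxn4, a factor of retina and spinal cord progenitors, fell from 21.1 ± 18.8 RPM to 0 reads in any library (at least 9.74-fold). In the Hippo and epithelial family (4 higher and 2 lower of 15) Tead3 rose from 1.13 ± 0.854 to 64.3 ± 39.6 RPM, the YAP relative Wwtr1 from 58.3 ± 19.9 to 169.7 ± 59.6 RPM, and the epithelial factor Grhl2 from 7.45 ± 3.70 to 52.3 ± 9.75 RPM. Tfap2c, of trophoblast and germ cells, was at 103 ± 11.9 RPM on day 0 and 156 ± 70.3 RPM on day 8 (adjusted p = 0.561). Of 4 tested SNAIL and ZEB factors, which repress epithelial genes, 3 (Snai1, Zeb2 and, named after its values were seen, Snai3) were higher and 1 lower. Snai1 rose from 0.346 ± 0.449 to 11 ± 3.21 RPM, and Zeb1 fell from 21.3 ± 7.25 to 2.00 ± 2.38 RPM. Zeb2 had reads in the X14 libraries of day 8 (3.93 and 6.78 RPM) and in no other library of the 2 days, and its call was lost without either of them (adjusted p = 0.0529 and 0.0846). Among the STAT, IRF, NF-kappaB and SMAD genes (10 higher and 1 lower of 27) Irf1, an interferon response factor, rose from 23.8 ± 6.69 to 135 ± 51.4 RPM, Smad3, which carries TGF-beta and activin signals, rose from 11.6 ± 5.5 to 60.0 ± 24.6 RPM, and Stat4 fell from 10.9 ± 5.70 to 0.775 ± 0.763 RPM. Stat3, through which LIF acts, was at 51.0 ± 31.7 RPM on day 0 and 67.7 ± 19.3 RPM on day 8 (adjusted p = 0.235).

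**Figure D4:**
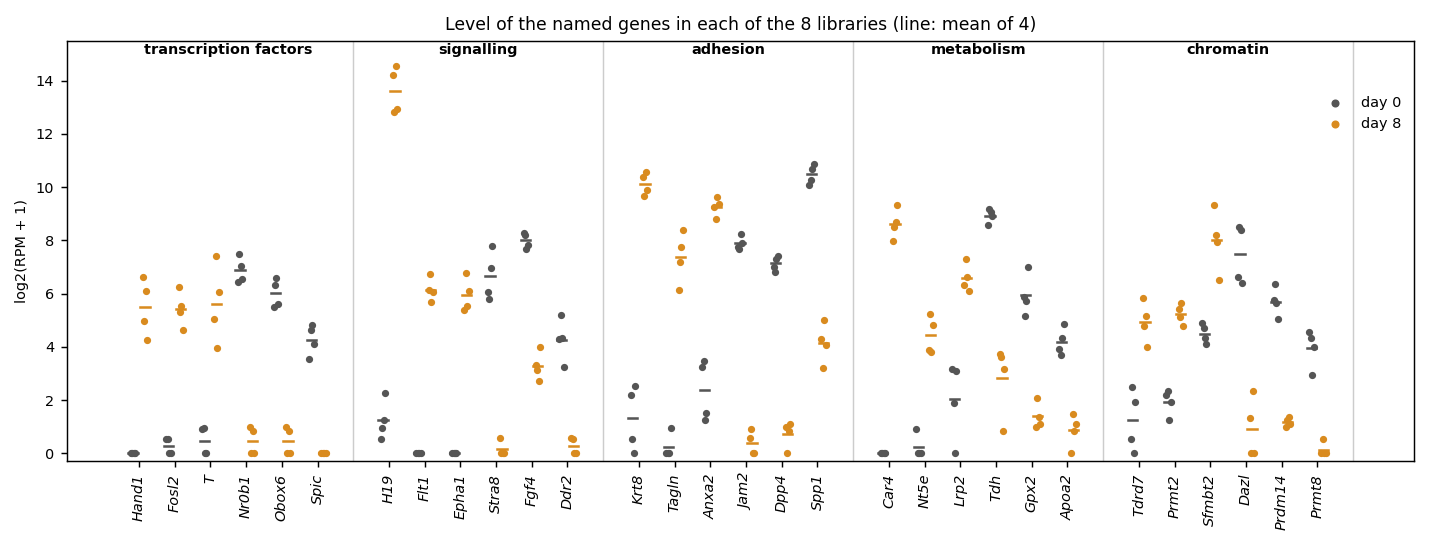
Level of each gene of the 5 classes that is given library by library in the text, in log2 of RPM plus 1, with 1 point per library, day 0 in grey and day 8 in orange, a short line at the mean, and a section for each class. In every gene shown the 4 libraries of day 0 and the 4 of day 8 do not overlap.

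Among signalling genes the largest falls, by the same rule, were those of Stra8, Fgf4 and Ddr2. Stra8 (chr6:34920163-34939342), a retinoic acid target of germ cells that also stands on the germline list, measured 65.2, 54.1, 124 and 218 RPM on day 0 and 0.491, 0, 0 and 0 RPM on day 8, with 1 read left on day 8 (600.1-fold lower in reads, 95% counting interval 107 to 23741, adjusted p = 2.23e-10). Fgf4 (chr7:144861386-144865243), the FGF that mESCs make themselves and that primes them for differentiation, measured 309.8, 296, 201 and 228 RPM on day 0 and 8.84, 7.68, 5.60 and 14.8 RPM on day 8, and no library of one day reached the other day's range (log2 fold change -4.88, SE 0.24, adjusted p = 3.4e-17). Ddr2 (chr1:169972308-170110501), a collagen receptor kinase, measured 18.5, 35.9, 18.9 and 8.50 RPM on day 0 and 0.491, 0.452, 0 and 0 RPM on day 8 (73.2-fold lower in reads, 95% counting interval 19.9 to 610.5, adjusted p = 1.77e-06). Beside H19, the largest rises were in Flt1 and Epha1. Flt1 (chr5:147561604-147726011), a VEGF receptor of endothelium and trophoblast, had no reads in the 4 libraries of day 0 and 69.2, 104, 50.4 and 66.1 RPM on day 8 (at least 30.3-fold higher, adjusted p = 2.72e-12). Epha1 (chr6:42358487-42373268), an ephrin receptor of epithelia, had no reads in the 4 libraries of day 0 and 41.2, 108, 44.8 and 67.3 RPM on day 8 (at least 27.3-fold higher, adjusted p = 2.65e-10). Its table entry overlaps Zyx, and its reads may include those of that gene.

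Most of the tested WNT ligands were called higher. Of 19 listed, 12 were tested, 10 were higher and 0 lower (median log2 fold change 3.14; 8 higher with the length trend removed), and in 7 of the 12 the libraries of the days did not overlap. The summed level of the ligands was 1.89 to 7.28 RPM over the libraries of day 0 and 135 to 165 RPM on day 8. Ligands this low on day 0 could hardly be called lower. The absence of lower calls and the high median therefore do not test the direction of the family. Wnt7b, of epithelium and placenta, rose from 2.25 ± 2.13 to 41.3 ± 8.88 RPM, and Wnt6 from 0.236 ± 0.472 to 25.3 ± 12.4 RPM. Wnt4, of kidney and gonad, rose from 0.341 ± 0.682 to 25.2 ± 8.44 RPM, and Wnt3, of the streak, from 0 reads in any library to 17.4 ± 7.49 RPM (at least 7.28-fold). Among 41 tested receptors, inhibitors and targets 15 were higher and 3 lower. The receptor Fzd2 rose from 2.05 ± 0.627 to 82.5 ± 25.7 RPM, the DKK receptor Kremen1 from 9.24 ± 6.92 to 139 ± 71.9 RPM and the secreted inhibitor Dkk1 from 0 reads in any library to 14.8 ± 8.09 RPM (at least 6.21-fold). The inhibitors Notum and Sfrp1 and the nuclear factor Lef1 fell, Sfrp1 from 123 ± 73.7 to 23.9 ± 10.8 RPM and Notum from 39.0 ± 10.6 to 5.94 ± 1.53 RPM. The common target gene Axin2 was at 20.1 ± 12.2 RPM on day 0 and 16.6 ± 10.9 RPM on day 8 (adjusted p = 0.733).

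FGF ligands were called in both directions, with 3 higher and 2 lower of 12, where 19.9% of all genes tested were higher and 14.6% lower. Against the fall of Fgf4, the epiblast ligand Fgf5 rose from 0 reads in any library to 58.3 ± 32.0 RPM (at least 24.4-fold) and the streak ligand Fgf8 from 0.114 ± 0.227 to 57.3 ± 43.2 RPM. Of 20 FGF receptors and feedback genes of the ERK pathway 9 were higher and 2 lower (median 1.49), with 1 lower without either X14 library of day 0 or without any day 8 library but X18 single. Fgfr2 rose from 9.68 ± 2.73 to 68.6 ± 11.8 RPM and Fgfr1 from 44.3 ± 26.1 to 134 ± 27.6 RPM. The ERK phosphatases, which are switched on by the pathway that they damp, rose too, Dusp6 from 5.56 ± 1.49 to 52.5 ± 31.8 RPM, Dusp5 from 6.19 ± 2.93 to 37.7 ± 12.3 RPM and Dusp4 from 0.455 ± 0.910 to 16.5 ± 9.08 RPM. The feedback inhibitor Spry4 was at 0 RPM on day 0 and 4.04 ± 5.19 RPM on day 8 (adjusted p = 0.0674, and 0.0152 with the replicate block, but 0.313 when both X14 libraries of day 0 were left out of that fit).

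The insulin-like growth factor axis had 9 higher and 0 lower of 18 tested (median 1.46). Insulin-like growth factor 2 (Igf2), the fetal growth factor, rose from 0.671 ± 0.577 to 1327 ± 852 RPM (log2 fold change 10.43, SE 0.65, adjusted p = 1.68e-14), and its neighbour H19 was described above. The binding protein Igfbp3 rose from 6.21 ± 2.22 to 234 ± 110.3 RPM, and Irs1, which docks to the receptors, rose from 0 reads in any library to 24.4 ± 7.18 RPM (at least 10.2-fold). Igfbp2, already abundant on day 0, was at 591 ± 96.2 RPM on day 0 and 903 ± 338 RPM on day 8 (adjusted p = 0.11). Receptor tyrosine kinases and their ligands had 20 higher and 5 lower of 35 (median 1.5). Csf1, the macrophage growth factor, rose from 0.448 ± 0.517 to 88.7 ± 49.7 RPM, Egfr from 0.792 ± 1.31 to 38.9 ± 12.9 RPM and Kitl, the ligand of KIT, from 0.574 ± 0.446 to 29.6 ± 13.4 RPM. Kit itself fell from 214 ± 106 to 17.8 ± 11.4 RPM, so that ligand and receptor moved in opposite directions. Pdgfc fell from 46.3 ± 5.18 to 5.82 ± 1.09 RPM, and Vegfa, ligand of FLT1, was at 84.2 ± 6.90 RPM on day 0 and 78.2 ± 13.6 RPM on day 8 (adjusted p = 0.643). Among Eph receptors and ephrins (7 higher and 1 lower of 19, with 2 lower without the X14 single library of day 0 or the X14 double library of day 8) Efnb1 rose from 2.58 ± 1.70 to 98.1 ± 62.9 RPM and Efnb2 from 2.73 ± 0.978 to 74.3 ± 25.0 RPM, while Epha2 fell from 98 ± 42.6 to 29.4 ± 12.9 RPM.

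In the TGF-beta superfamily 10 of 21 tested ligands were higher and 4 lower, and 13 of 30 receptors and antagonists were higher and 2 lower. Bmp4 rose from 0.472 ± 0.944 to 19.4 ± 3.17 RPM, and the annotation has Gm15217 over it. Tgfb2 rose from 0 reads in any library to 11 ± 3.70 RPM (at least 4.62-fold), and the protease Bmp1, which trims procollagens, rose from 0.334 ± 0.423 to 37.8 ± 5.16 RPM. Gdf3, a NODAL-like ligand of pluripotent cells, fell from 192 ± 65.8 to 8.77 ± 2.64 RPM. Nodal (104 ± 15.3 RPM on day 0 and 60.8 ± 28.7 RPM on day 8) and its inhibitor Lefty1 (27.6 ± 10.6 RPM on day 0 and 44.8 ± 29.7 RPM on day 8) were not called. Tdgf1, the coreceptor of NODAL, fell from 1244 ± 503 to 301 ± 245 RPM, while the TGF-beta receptor Tgfbr2 rose from 0.110 ± 0.220 to 11 ± 6.61 RPM and the coreceptor Tgfbr3 from 4.85 ± 3.25 to 32.7 ± 12.1 RPM. NOTCH genes had 12 higher and 3 lower of 25: Notch3 rose from 34.0 ± 25.6 to 164 ± 94.0 RPM, its coactivator Maml1 from 12.6 ± 8.24 to 51.8 ± 19.4 RPM, and Notch4 fell from 18.9 ± 13.4 to 0.462 ± 0.639 RPM. Of 10 Hedgehog genes 5 were higher and 2 lower (1 lower without either X14 library of day 0 or the X18 double library of day 8). Smo, which carries the signal inward, rose from 19 ± 2.87 to 67.8 ± 22.7 RPM, and the coreceptors Cdon and Gas1 rose from 9.08 ± 8.75 to 79.2 ± 32.3 RPM and from 0.895 ± 1.03 to 16.9 ± 3.78 RPM. Semaphorins, plexins, netrins and slits, known from axon guidance, had 18 higher and 3 lower of 38, with Sema3e from 1.01 ± 0.755 to 69.9 ± 18.5 RPM and the netrin receptor Unc5b from 7.42 ± 6.06 to 159 ± 52.6 RPM.

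The LIF and IL6 family pathway, whose ligand was withdrawn, had 7 higher and 2 lower of 25 tested, and most of its core was not called. Lifr was at 26.6 ± 11.9 RPM on day 0 and 16.1 ± 3.11 RPM on day 8, and Socs3, a feedback target of STAT3, at 55.9 ± 28.0 RPM on day 0 and 47.6 ± 11.3 RPM on day 8. Lif itself was at 6.10 ± 3.24 RPM on day 0 and 19.3 ± 11.9 RPM on day 8 (adjusted p = 0.0882, and 0.0139 with the replicate block, but 0.208 when both X14 libraries of day 0 were left out of that fit). Osm, a related cytokine, fell from 10.4 ± 3.83 RPM to 0 reads in any library (at least 4.82-fold). Pias1, a SUMO ligase, rose from 27.8 ± 6.03 to 73.3 ± 20.2 RPM. Retinoid genes had 4 higher and 4 lower of 12. Cyp26a1, which degrades retinoic acid, rose from 0 reads in any library to 8.98 ± 6.47 RPM (at least 3.76-fold), Rdh10, which makes its precursor, rose from 4.18 ± 2.06 to 16.2 ± 3.6 RPM, and the binding protein Crabp1 fell from 15.3 ± 6.08 to 0.113 ± 0.226 RPM.

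Adhesion, matrix and cytoskeleton genes had the highest share called higher of the 5 classes. Krt8 (chr15:101996711-102004342), a keratin of simple epithelium, measured 3.53, 0.455, 0 and 4.72 RPM on day 0 and 1325, 807, 1508 and 952 RPM on day 8, far apart on the 2 days (log2 fold change 9.32, SE 0.57, adjusted p = 1.02e-14). Tagln (chr9:45929628-45936058), an actin-binding protein of smooth muscle, measured 0, 0, 0 and 0.944 RPM on day 0 and 68.7, 146, 213 and 334 RPM on day 8; its entry overlaps Pcsk7. With a single read on day 0 it was 1006-fold higher in reads, 95% counting interval 180.1 to 39766, adjusted p = 2.12e-13. Anxa2 (chr9:69453620-69491795), which links membrane and actin, measured 8.37, 10, 1.35 and 1.89 RPM on day 0 and 604, 443, 789.9 and 652 RPM on day 8 (log2 fold change 7.32, SE 0.44, adjusted p = 8.05e-15), and the day 0 levels of line X18 were below those of X14. The largest falls, with at most 1 gene a family, were those of Jam2, Dpp4 and Spp1. Jam2 (chr16:84774123-84825928), a tight junction molecule, measured 215, 201, 303 and 241 RPM on day 0 and 0.491, 0.904, 0 and 0 RPM on day 8, with 3 reads left in all on day 8 (478-fold lower in reads, 95% counting interval 163 to 2322, adjusted p = 1.95e-14). Dpp4 (chr2:62330073-62412231), the surface peptidase CD26, measured 126, 111, 158 and 171 RPM on day 0 and 0.982, 0, 0.800 and 1.14 RPM on day 8 (log2 fold change -7.49, SE 0.46, adjusted p = 1.02e-14). Spp1 (chr5:104435118-104441050), the matrix protein osteopontin, measured 1081, 1231, 1650.2 and 1859 RPM on day 0 and 18.7, 8.13, 31.2 and 16.0 RPM on day 8, in ranges that did not meet (log2 fold change -6.42, SE 0.28, adjusted p = 2.88e-18).

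Genes of epithelial junctions were more often called higher than lower. Of 13 tested desmosome and plakin genes 9 were higher and 0 lower (median 2.64), and 7 of them did not overlap between the days. Dsp, which ties desmosomes to keratin, rose from 10.4 ± 13.1 to 258 ± 121 RPM, the desmosomal cadherin Dsc2 from 2.24 ± 1.56 to 119 ± 40.4 RPM and Pkp2 from 20.4 ± 6.12 to 159 ± 33.7 RPM. The sister cadherin Dsg2 was at 55.9 ± 26.5 RPM on day 0 and 85.5 ± 42.8 RPM on day 8 (adjusted p = 0.33). Of 10 claudins 5 were higher and 0 lower. Cldn6 rose from 5.42 ± 3.4 to 259 ± 33.2 RPM, Cldn7 from 5.58 ± 2.81 to 136 ± 21.4 RPM and Cldn4 from 58.0 ± 22.2 to 444 ± 150.2 RPM. Of 27 other genes of tight junctions and polarity 18 were higher and 2 lower, with Cgn from 7.85 ± 4.30 to 153 ± 26.2 RPM, the polarity gene Pard6b from 17.9 ± 14.1 to 153 ± 42.0 RPM and the scaffold Tjp1 from 104 ± 53.4 to 371 ± 158 RPM. The cadherin Cdh1, which mESCs already express, rose from 468 ± 236 to 1013 ± 243 RPM, and this call was lost without the X18 double library of day 0 (log2 fold change 0.91). Cdh2, the cadherin of mesenchyme and nerve, was at 4.38 ± 3.54 RPM on day 0 and 8.64 ± 9.05 RPM on day 8 (adjusted p = 0.704).

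Keratins and other filaments had only 9 higher and 3 lower of 22 tested (median 0.16), but the keratins of simple epithelium rose. Beside Krt8, Krt18 rose from 2.83 ± 0.881 to 1629.5 ± 654 RPM, Krt19 from 0.668 ± 0.846 to 511 ± 145 RPM and Krt7 from 4.61 ± 3.85 to 341 ± 124 RPM. Vim, the filament of mesenchyme, was at 146 ± 38.5 RPM on day 0 and 83.8 ± 37.6 RPM on day 8 (adjusted p = 0.0151). The neurofilament Nefh fell from 12.9 ± 6.01 to 0.113 ± 0.226 RPM. Among surface molecules (12 higher and 5 lower of 29) Epcam, an adhesion molecule of epithelia, rose from 75.9 ± 14.9 to 378 ± 108 RPM. Podxl, an anti-adhesive sialomucin, rose from 23.6 ± 15 to 576 ± 151 RPM, and the galectin Lgals1 from 55.9 ± 32.9 to 647 ± 258 RPM. Pecam1 and Icam1, which mESCs share with endothelium, fell, Pecam1 from 114 ± 37.5 to 8.24 ± 6.35 RPM and Icam1 from 132 ± 4.33 to 19 ± 4.96 RPM.

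Actin and annexin genes were more often called higher than lower. Of 41 tested actin cytoskeleton and contractile genes 24 were higher and 2 lower (median 1.42; 1 lower without the X14 double library of day 0 or without any day 8 library but X18 single), and in 22 all day 8 libraries lay above those of day 0. Tpm1, a tropomyosin, rose from 50.8 ± 5.40 to 1104 ± 288 RPM, Cnn2 from 12.8 ± 6.44 to 342 ± 41.6 RPM and the filamin Flnc from 2.36 ± 2.41 to 137 ± 62.4 RPM. Acta2, the actin of smooth muscle, rose from 0 reads in any library to 23.5 ± 8.89 RPM (at least 9.81-fold), whereas the common actin Actb was at 2151 ± 552 RPM on day 0 and 2502 ± 80.2 RPM on day 8 (adjusted p = 0.252). Of 16 annexins and S100 proteins 10 were higher and 0 lower (median 1.88). Anxa3 rose from 0.334 ± 0.423 to 106 ± 35.5 RPM, Anxa1 from 4.30 ± 3.92 to 153 ± 68.9 RPM and S100a6 from 13.2 ± 12.2 to 156 ± 68.8 RPM. Gap junction genes had 4 higher and 1 lower of 10 (2 lower without either X14 library or the X18 single library of day 0 or without the X18 single library of day 8), among them Gja1, the connexin of heart and epiblast, from 46.2 ± 12.4 to 317 ± 158 RPM, and Gjb2, of placenta and skin, from 0 reads in any library to 72.6 ± 71.3 RPM (at least 30.4-fold).

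Matrix genes were called in both directions, more often higher. Of 36 tested proteases, inhibitors and crosslinkers 25 were higher and 3 lower (median 2.09). The lower count was 1 without the X14 double or X18 single library of day 0 or without any day 8 library but X14 double. Loxl2, which crosslinks collagen, rose from 1.88 ± 2.93 to 56.4 ± 10.1 RPM, Timp2 from 0.787 ± 1.04 to 36.2 ± 17.1 RPM and the urokinase receptor Plaur from 1.13 ± 1.34 to 34.4 ± 10.3 RPM. Of 28 collagens 17 were higher and 1 lower (median 1.78). The basement membrane chains Col4a1 and Col4a2, the latter with an entry that overlaps the former, rose from 14.1 ± 9.21 to 238 ± 113 RPM and from 6.64 ± 6.37 to 198 ± 102 RPM. The fibrillar chain Col1a2 rose from 0 reads in any library to 32.3 ± 11.7 RPM (at least 13.5-fold), and Col9a2, of cartilage, fell from 50 ± 21.4 to 2.20 ± 2.10 RPM. Of 20 laminins and basement membrane genes 10 were higher and 3 lower, with Lamb1 from 40.0 ± 35.5 to 252 ± 56.3 RPM and Npnt from 4.51 ± 4.36 to 39.1 ± 3.55 RPM against Lama3 from 42.6 ± 29.3 to 2.24 ± 2.61 RPM. Lamc1 (303 ± 249.5 RPM on day 0 and 281 ± 114 RPM on day 8) and Sparc (612 ± 80.4 RPM on day 0 and 529 ± 83.2 RPM on day 8) were not called. Among 37 glycoproteins and proteoglycans 15 were higher and 4 lower (2 lower without the X18 double library of day 8). Thbs1 rose from 0 reads in any library to 80.1 ± 20.4 RPM (at least 33.5-fold) and the Hippo target Cyr61 from 20.8 ± 12 to 131 ± 49.5 RPM, while Vcan fell from 35.5 ± 14.1 to 4.64 ± 2.55 RPM. Of 19 integrins 9 were higher and 4 lower (2 lower without the X14 double library of day 0). Itga3, a laminin receptor, rose from 25.5 ± 10.9 to 242 ± 49.9 RPM, Itgb5 from 35.8 ± 17.2 to 167 ± 15.9 RPM and Itgb3 from 3.61 ± 3.54 to 58.0 ± 44.4 RPM. Itgb7, known from lymphocytes, fell from 11.3 ± 8.52 to 0.349 ± 0.436 RPM.

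Metabolism was the class in which lower genes prevailed. Tdh (chr14:63492347-63509092), the threonine dehydrogenase on which mESCs depend, measured 379.8, 574, 533 and 487 RPM on day 0 and 12.3, 11.3, 0.800 and 7.98 RPM on day 8 (log2 fold change -6.48, SE 0.59, adjusted p = 1.03e-10). The X18 double library of day 8 lay apart from the other 3 of its day. Gpx2 (chr12:76792335-76795554), a glutathione peroxidase whose entry overlaps Fntb, measured 56.8, 34.6, 51.2 and 126 RPM on day 0 and 0.982, 3.16, 1.6 and 1.14 RPM on day 8 (log2 fold change -5.27, SE 0.62, adjusted p = 2.23e-08). Apoa2 (chr1:171225054-171226379), an apolipoprotein, measured 14.1, 11.8, 18.9 and 28.3 RPM on day 0 and 0, 1.81, 0.800 and 1.14 RPM on day 8, all day 8 values below those of day 0 (log2 fold change -4.22, SE 0.57, adjusted p = 3.19e-07). The largest rise was that of Car4 (chr11:84957786-84966044), a membrane-bound carbonic anhydrase, with no reads in the 4 libraries of day 0 and 250.4, 358, 416 and 642 RPM on day 8 (at least 174-fold higher, adjusted p = 1.09e-17). Nt5e (chr9:88327609-88372089), the surface nucleotidase CD73, had 0.881, 0, 0 and 0 RPM on day 0 and 13.7, 37.1, 12.8 and 27.4 RPM on day 8 (73.7-fold higher in reads, 95% counting interval 20.1 to 614, adjusted p = 1.13e-08). Lrp2 (chr2:69424340-69586065), the endocytic receptor megalin, had 7.93, 2.73, 0 and 7.55 RPM on day 0 and 80.0, 157, 98.4 and 67.3 RPM on day 8 (log2 fold change 4.67, SE 0.57, adjusted p = 4.84e-08).

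The serine, glycine, threonine and one-carbon genes had 0 higher and 21 lower of 31 tested (median -1.29), and 0 and 23 with the length trend removed. Without the X18 double library of day 8 there were 2 higher, and 1 without either X14 library or the X18 double library of day 0 or without the X14 single library of day 8, with 19 to 21 lower over the libraries left out one at a time. In 18 of them every day 8 library was below every day 0 library. Psat1, of serine synthesis, fell from 1565 ± 652 to 151 ± 61.0 RPM (log2 fold change -3.36, SE 0.28, adjusted p = 1.25e-11). Cth, which makes cysteine, fell from 185 ± 24.3 to 27.8 ± 12.6 RPM, and Mthfd2, the mitochondrial folate enzyme, from 144 ± 22.0 to 43.5 ± 19.8 RPM. Gldc, the glycine decarboxylase, was at 128 ± 55.0 RPM on day 0 and 123 ± 33.7 RPM on day 8 (adjusted p = 0.96). Nucleotide metabolism had 4 higher and 11 lower of 40. Upp1, uridine phosphorylase, fell from 982 ± 391 to 164 ± 101 RPM, and the S-phase enzymes Rrm2 and Tk1 fell from 734 ± 109 to 183 ± 43.8 RPM and from 94.8 ± 29.0 to 29.3 ± 11 RPM. The Tk1 entry overlaps Gm20708.

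Subunits of oxidative phosphorylation were 0 higher and 37 lower of 74 tested (median log2 fold change -1.02), and 4 of the 74 had a fold change above 0. Their exons are short (median 1234 bases against 3490.5 for all genes), and the count moved with length and with single libraries. With the length trend removed, 20 were lower and 1 higher (median -0.69). Without the X18 double library of day 0 there were 15 lower, without the X14 double library of day 8 there were 22, and over the libraries left out one at a time 15 to 51. Without both X18 libraries of day 0 there were 4, and without both X14 libraries of day 0 there were 56. In 11 of the 74 subunits all day 8 libraries lay below those of day 0, a share not far from the 12.4% of all genes tested. Atp5g1, of the ATP synthase, fell from 51.1 ± 16.9 to 11.9 ± 4.76 RPM, and Cox7a1, of cytochrome oxidase, from 49.7 ± 41.6 to 6.13 ± 3.26 RPM. Of 35 genes of the pentose phosphate pathway and tricarboxylic acid cycle 1 was higher and 5 lower, with Idh1 from 256 ± 76.9 to 74.5 ± 16.7 RPM and Pck2 from 148 ± 8.91 to 45.0 ± 17.2 RPM. Citrate synthase (Cs) was at 299 ± 102 RPM on day 0 and 309.8 ± 43.0 RPM on day 8 (adjusted p = 0.649).

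Glycolysis and sugar transport had 10 higher and 1 lower of 37 (median 0.37), where 19.9% of all genes tested were higher. Those called higher included transporters, regulators and the enzymes Pfkl, Tpi1 and Eno2, named after their values were seen. With the length trend removed 8 were higher and 1 lower (median 0.25), against 18.4% of all genes higher. Without both X18 libraries of day 0 there were 7 higher and 2 lower, and without both X14 libraries of day 0 there were 11 and 2. Without the X14 single or the X18 single library of day 8 there were 2 lower. The glucose transporter Slc2a1 rose from 357 ± 125 to 3054 ± 301 RPM (log2 fold change 3.15, SE 0.18, adjusted p = 3.46e-15), and Slc2a3 rose from 1375 ± 511 to 4229 ± 1044 RPM. The lactate exporter Slc16a3 rose from 93.0 ± 23.8 to 431 ± 66.6 RPM, and Pfkfb3, which drives phosphofructokinase, rose from 21.5 ± 8.70 to 128 ± 7.76 RPM. The core enzymes Ldha (1873 ± 427 RPM on day 0 and 1725 ± 579 RPM on day 8), Hk2 (224 ± 152 RPM on day 0 and 162 ± 58.9 RPM on day 8) and Pgk1 (233 ± 106 RPM on day 0 and 215 ± 73.2 RPM on day 8) were not called. Pfkp, a phosphofructokinase subunit whose entry overlaps Pitrm1, fell from 449 ± 93.1 to 85.7 ± 24.6 RPM.

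Lipid and redox genes were mixed. Of 37 fatty acid genes 8 were higher and 12 lower. Cpt1a, the liver form of the carnitine transferase that lets fatty acids into mitochondria, fell from 143 ± 91.7 to 20.2 ± 19 RPM, and its brain form Cpt1c rose from 17.9 ± 9.49 to 53.5 ± 11.7 RPM. Acacb, which makes the malonyl-CoA that inhibits that step, fell from 53.4 ± 25.7 to 3.36 ± 1.12 RPM. Elovl6 fell from 254 ± 47.2 to 76.8 ± 41.2 RPM, and Elovl1 rose from 10 ± 4.13 to 71.1 ± 22.3 RPM. Cholesterol genes had 0 higher and 4 lower of 30. Insig1, the sterol sensor, fell from 217 ± 28.7 to 70.0 ± 13.6 RPM, whereas Hmgcs1 (214 ± 142 RPM on day 0 and 328 ± 167 RPM on day 8) was not called. Without the X14 single library of day 8 there were 9 lower, and without the X18 single library of day 8 there were 8, with 2 higher. Without either X14 library of day 0 there was 1 higher. Of 54 glutathione, redox and metallothionein genes 12 were higher and 18 lower. Gsta4 fell from 711 ± 239.8 to 59.4 ± 33.0 RPM and the quinone reductase Nqo1 from 121 ± 55.5 to 10.8 ± 4.82 RPM, while the secreted peroxidase Gpx3 rose from 12.5 ± 7.96 to 63.6 ± 19.4 RPM. The metallothioneins Mt1 (194 ± 44.7 RPM on day 0 and 165 ± 49.2 RPM on day 8) and Mt2 (267 ± 25.5 RPM on day 0 and 233 ± 79.8 RPM on day 8) were not called. Among 35 amino acid transporters 8 were higher and 5 lower, where 19.9% of all genes tested were higher and 14.6% lower. Slc43a2 rose from 6.56 ± 1.02 to 61.3 ± 30.8 RPM, Slc7a3, a carrier of arginine and lysine, fell from 260.2 ± 134 to 38.7 ± 11.9 RPM, and Slc1a5, of glutamine, fell from 228 ± 42.0 to 87.9 ± 22.1 RPM. Slc7a5, of leucine, was at 212 ± 99.3 RPM on day 0 and 203 ± 73.6 RPM on day 8. Beside Car4, the carbonic anhydrase Car2 rose from 5.78 ± 5.18 to 229 ± 36.2 RPM, and Car13 fell from 31.2 ± 6.43 to 9.20 ± 2.12 RPM.

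Chromatin genes as a class, with the germline list included, were near balance. By the rule of at most 1 gene a family Dazl, of the germline list, Prdm14 and Prmt8 had the largest falls of the class. Dazl (chr17:50279394-50293599), an RNA-binding protein of germ cells, measured 98.3, 359, 336 and 84.0 RPM on day 0 and 1.47, 0, 4.00 and 0 RPM on day 8 (log2 fold change -7.15, SE 0.73, adjusted p = 1.33e-09). The X14 single and X18 double libraries of day 0 were the highest. Prdm14 (chr1:13113457-13127163), which keeps DNA methylation low in naive cells, measured 53.3, 80.5, 48.5 and 32.1 RPM on day 0 and 0.982, 1.36, 1.6 and 1.14 RPM on day 8, without overlap (log2 fold change -5.35, SE 0.74, adjusted p = 5.16e-07). Prmt8 (chr6:127689011-127769472), an arginine methyltransferase of brain and mESCs, measured 22.5, 19, 6.74 and 15.1 RPM on day 0 and 0, 0.452, 0 and 0 RPM on day 8 (116-fold lower in reads, 95% counting interval 20.4 to 4619, adjusted p = 8.87e-09). On the rising side Tdrd7 (chr4:45965334-46034761), a Tudor protein of germ granules and lens, had 0.441, 4.55, 0 and 2.83 RPM on day 0 and 56.5, 26.7, 34.4 and 14.8 RPM on day 8 (log2 fold change 4.19, SE 0.72, adjusted p = 1.54e-05). Prmt2 (chr10:76207222-76237865), another arginine methyltransferase, had 3.53, 4.09, 1.35 and 2.83 RPM on day 0 and 42.2, 33.4, 49.6 and 26.2 RPM on day 8 (log2 fold change 3.76, SE 0.39, adjusted p = 2.34e-09). Sfmbt2 (chr2:10370510-10595253), an imprinted Polycomb gene of trophoblast whose entry overlaps Gm13261, had 28.6, 25.0, 18.9 and 16.0 RPM on day 0 and 649, 294, 246 and 90.1 RPM on day 8 (log2 fold change 3.56, SE 0.43, adjusted p = 4.14e-08).

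DNA methylation and demethylation genes had 6 higher and 3 lower of 22 tested (median 0.56). Tet2 and Tet1, which oxidise methylcytosine, fell from 70.7 ± 31.3 to 9.21 ± 6.87 RPM and from 155 ± 113 to 33.3 ± 15.8 RPM, while Tet3 rose from 6.71 ± 4.97 to 43.2 ± 36.7 RPM. The methyltransferase Dnmt3b rose from 54.7 ± 29.3 to 246 ± 118 RPM and its entry overlaps 7530422B04Rik. Dnmt3a (56.5 ± 16.7 RPM on day 0 and 78.3 ± 28.5 RPM on day 8, adjusted p = 0.351) and the cofactor Dnmt3l (35.7 ± 15.9 RPM on day 0 and 70.1 ± 35.1 RPM on day 8, adjusted p = 0.0581) were not called. All 3 were higher in the middle of the course, where on day 4 Dnmt3b was at 1848 RPM, Dnmt3a at 618 and Dnmt3l at 916, levels given without a test. Uhrf1, which guides maintenance methylation, was at 358 ± 161 RPM on day 0 and 185 ± 55.0 RPM on day 8 (a change of -0.90 in log2, short of the limit of 1).

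Polycomb genes were called in both directions, where 19.9% of all genes tested were higher and 14.6% lower. Of 12 PRC2 genes 3 were higher and 4 lower: Ezh1 rose from 22.4 ± 9.42 to 60.3 ± 19 RPM and the histone binder Rbbp7 from 379.5 ± 122 to 1328 ± 483 RPM, while Eed fell from 298 ± 110.1 to 83.3 ± 26.1 RPM and the recruiting subunit Mtf2 from 492 ± 56.1 to 93.4 ± 14.9 RPM. Ezh2, the catalytic subunit of dividing cells, was at 251 ± 14.3 RPM on day 0 and 143 ± 27.7 RPM on day 8 (a change of -0.83 in log2, adjusted p = 7.95e-06). Of 27 PRC1 genes 6 were higher and 2 lower. Phc2 rose from 11.2 ± 1.66 to 104 ± 14.8 RPM and Pcgf5 from 15.1 ± 1.72 to 83.3 ± 14.7 RPM, and Pcgf6, of the PRC1.6 complex that holds germline genes silent, fell from 116 ± 20.7 to 49.4 ± 3.99 RPM. Phc1 (148 ± 112 RPM on day 0 and 169.7 ± 70.3 RPM on day 8) and Cbx7 (105 ± 33.1 RPM on day 0 and 139.6 ± 37.2 RPM on day 8) were not called. The list of H3K9 methyltransferases and HP1 proteins had 0 higher and 7 lower of 18 (2 higher without the X18 single library of day 8, and 1 without either X14 library or the X18 double library of day 0). The lower genes include Prdm14, given above, the naive marker Zfp42 (from 140.4 ± 63.6 to 14.9 ± 6.15 RPM) and Zfp57, which protects imprints (from 232 ± 33.1 to 34.3 ± 12.3 RPM). The count therefore does not describe the methyltransferases alone. Ehmt1 was at 59.0 ± 12.1 RPM on day 0 and 89.4 ± 23.4 RPM on day 8.

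Large remodelling and histone-modifying complexes mostly were not called, and their counts leaned on single libraries and on exon length. With the length trend removed, the BAF complex had 1 higher and 2 lower. CHD, ISWI and INO80 genes then had 4 and 4, and the H3K4, H3K36, H3K79 and H4K20 methyltransferases 3 and 7 (median -0.04). Deacetylases and sirtuins had 4 and 3, HMG and histone genes 7 and 6, and cohesin, condensin and CTCF genes 1 and 4. All counts that follow are from the main fit unless stated. The BAF complex had 4 higher and 2 lower of 26, with 10 higher without the X14 double library of day 0, 7 without the X18 single library of day 8 and 2 without the X18 single library of day 0. Actl6a, the actin-like subunit of progenitors, fell from 470.3 ± 176 to 111 ± 24.3 RPM, and the ATPase Smarca4 was at 176 ± 125 RPM on day 0 and 246 ± 51.4 RPM on day 8 (adjusted p = 0.0702). CHD, ISWI and INO80 genes had 4 higher and 3 lower of 29, with 13 higher without the X14 double library of day 0 and 7 without the X18 single library of day 8. Hells fell from 464 ± 58.5 to 164 ± 64.1 RPM and Smarcad1 from 223 ± 51.6 to 66.3 ± 17.3 RPM. The H3K4, H3K36, H3K79 and H4K20 methyltransferases had 6 higher and 4 lower of 27, with 3 higher without the X18 double library of day 0 or without the X14 double library of day 8. Setd7 rose from 12 ± 4.53 to 135 ± 66.0 RPM, while the core MLL subunits Wdr5, Ash2l and Dpy30 fell, Wdr5 from 387 ± 57.0 to 155 ± 13.8 RPM, Ash2l from 520.5 ± 123 to 195 ± 18.8 RPM and Dpy30 from 412 ± 300.3 to 62.8 ± 36.4 RPM. Histone deacetylases and sirtuins had 5 higher and 3 lower of 18, with 3 higher without the X18 single library of day 0 or the X14 double library of day 8. Sirt2 rose from 9.50 ± 5.06 to 33.6 ± 8.12 RPM, and Sirt3, of mitochondria, fell from 23.7 ± 4.48 to 6.69 ± 1.55 RPM. Each of these Sirt entries overlaps a neighbour (Nfkbib and Ric8). Among 25 HMG proteins and linker or variant histones 5 were higher and 3 lower, with 7 lower without the X14 double library of day 0 or the X18 single library of day 8, 6 without the X14 single library of day 0 and 5 without the X18 double library of day 8. The linker histone of resting cells H1f0 rose from 45.3 ± 11 to 207 ± 50.3 RPM, Hmgn5 from 10.6 ± 4.27 to 114 ± 61.0 RPM and Hmga2 from 7.89 ± 3.66 to 41.3 ± 18.4 RPM. Cohesin, condensin and CTCF genes had 2 higher and 1 lower of 26 (3 lower without the X14 double library of day 8, 2 without the X14 single or X18 single library of day 0 or either single library of day 8, and 1 higher without the X18 double library of day 0 or the X14 single library of day 8), and Ctcf was at 149 ± 38.2 RPM on day 0 and 140.4 ± 24.0 RPM on day 8 (adjusted p = 0.795). Acetyltransferases and bromodomain readers had 2 higher and 3 lower of 24 (0 higher without the X18 double library of day 0 or with the length trend removed, and 1 without the X18 single library of day 0 or the X14 double library of day 8), with Myst4 (Kat6b) from 214 ± 125 to 31.9 ± 19.5 RPM.

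Germline genes, which DNA methylation and PRC1.6 hold silent in somatic cells, were mostly lower or not called on day 8. Of 37 listed, 35 were tested, 2 were higher and 18 lower (median log2 fold change -1.57), and in 16 all day 8 libraries lay below those of day 0. The summed level of the list was 1142, 2737, 3929 and 2000 RPM on day 0 and 719, 308, 795 and 322 RPM on day 8. In X18 on every day, and in X14 on days 1 to 8, the double library lay above the single one. In X14 on day 0 it lay below, and the link of this level to the labels was not tested. Beside Dazl and Stra8, Tdrd12, of the piRNA pathway, fell from 250.2 ± 119.7 to 3.70 ± 3.05 RPM (log2 fold change -6.34, SE 0.55, adjusted p = 3.37e-11). Hormad1, a protein of the meiotic axis, fell from 179 ± 128 to 2.33 ± 2.79 RPM (log2 fold change -6.21, SE 0.78, adjusted p = 8.43e-08). Sycp3 (29.9 ± 14.4 RPM on day 0 and 24.2 ± 13.1 RPM on day 8, adjusted p = 0.583) and Mael (12.4 ± 6.07 RPM on day 0 and 5.58 ± 4.02 RPM on day 8, with a difference of -1.33 in log2, adjusted p = 0.132, 0.0313 with the replicate block, and 0.0473 when both X14 libraries of day 0 were left out of that fit) were not called. PRC1.6 is known to bind the letters CACGTG, a sequence that reads the same on both strands. It was looked for in the 250 bases before each gene's start (RefSeq, build GRCm38.p6), a choice made after the values were seen. It stood in 11 of the 31 matched germline genes (35.5%) and in 942 of 11136 matched genes tested (8.46%). The list was made of genes that DNA methylation and PRC1.6 hold silent. The higher share can therefore follow from the choice of the list and is no result of these libraries. Among germline genes that were called lower 6 of 17 held it (35.3%), and among the others 5 of 14 (35.7%). Of the 3 promoters printed here as examples of these cases, Hormad1 fell and holds the letters 57 and 20 bases before its start, Mael was not called and holds them 223 bases before its start, and Dazl fell and does not hold them. The windows are chr3:95559427-95559676 on the plus strand for Hormad1, chr1:166238745-166238994 on the minus strand for Mael and chr17:50293621-50293870 on the minus strand for Dazl, each written 5′ to 3′ with CACGTG in capitals.
Hormad1: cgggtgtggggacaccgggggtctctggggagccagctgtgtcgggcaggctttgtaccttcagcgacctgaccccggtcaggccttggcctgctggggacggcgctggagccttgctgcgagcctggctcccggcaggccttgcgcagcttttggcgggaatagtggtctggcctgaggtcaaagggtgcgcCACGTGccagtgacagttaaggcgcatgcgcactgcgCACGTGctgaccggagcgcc
Mael: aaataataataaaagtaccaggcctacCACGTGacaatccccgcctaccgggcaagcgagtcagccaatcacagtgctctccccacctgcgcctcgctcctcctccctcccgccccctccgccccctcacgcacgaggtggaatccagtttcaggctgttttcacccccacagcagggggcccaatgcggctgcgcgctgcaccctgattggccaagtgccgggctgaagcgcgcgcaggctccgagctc
Dazl: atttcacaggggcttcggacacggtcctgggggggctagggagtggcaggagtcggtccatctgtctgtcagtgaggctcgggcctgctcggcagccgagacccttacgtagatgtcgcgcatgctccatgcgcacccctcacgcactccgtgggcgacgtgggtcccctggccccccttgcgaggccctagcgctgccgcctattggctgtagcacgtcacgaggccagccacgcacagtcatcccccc

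Markers of other cell types were read as whole lists. All 12 genes of simple epithelium were higher on day 8 (median log2 fold change 5.23), and their summed level was 367 to 943 RPM over the day 0 libraries and 4593 to 7760 RPM over those of day 8. Trophoblast markers were split: 5 of the 7 tested of 12 listed were higher, Plac1 among them from 0 reads to a mean of 190 RPM, but the placental hormone genes Prl3d1 and Prl2c2 and the genes Tpbpa and Psg17 had 0 reads on both days, and Elf5 had 5 reads on day 8. Of 15 markers of primitive, visceral and parietal endoderm 10 were tested and 4 were higher (Foxa2, Dab2, Lamb1 and Pdgfra), while Ttr and Apoa1 had 0 reads on both days. Mesoderm and cardiac markers had 2 higher (T and Hand1) and 1 lower of 6 tested, with 0 reads of Nkx2-5 and Hand2 on both days. Fibroblast and smooth muscle markers had 6 higher of 9 tested, Tagln and Acta2 among them, and Prrx1, Lum and Myh11 had 0 reads. Endothelial markers had 0 higher and 3 lower of 6 tested (Pecam1, Tek and Vwf). The others on this list had few reads on both days. Reads on day 0 and day 8 were 0 and 17 for Cdh5, 5 and 17 for Tie1 and 0 and 4 for Esam. They were 0 and 2 for Kdr, 2 and 0 for Sox18 and 3 and 0 for Cldn5. Blood markers had 0 higher and 1 lower of 4 tested, and Ptprc and the embryonic globins Hbb-bh1, Hba-x and Hbb-y had 0 reads. Neural markers had 1 higher (Nes) and 2 lower (Stmn2 and Tubb3) of 7 tested, and germ cell markers 1 higher and 6 lower of 9. The part of each cell type in the family counts was not tested.

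The lines were compared with an interaction term, in a fit that also held a term for the labels double and single. For 5 of the 14612 genes (0.0342%) the day 8 minus day 0 difference was unequal in X18 and X14 past the call, and of the genes on the family lists this held for Anxa2 alone. Its log2 fold change was 5.82 in X14 and 8.81 in X18 (difference 2.99, SE 0.54, adjusted p = 0.0415). Without the term for the labels 1 gene was called, Egln3 (limma adjusted p = 0.0408), and Anxa2 was not (adjusted p = 0.2). With only the 8 libraries of the 2 days in the fit 0 genes were called by limma (815 at an unadjusted p under 0.05), and without any one library 0 to 117, the highest without the X14 single library of day 0. The X chromosome, on which the Xmas reporters sit, held 569 tested genes, with 107 higher (18.8%) and 92 lower (16.17%). These shares were near those of autosomal genes (19.95% and 14.57%). They pool libraries whose X level, given above as a deviation in log2, moved unequally, so that opposite shifts can cancel. From day 0 to day 8 this level went from 0.61 to 0.00 in X18 double and from -0.35 to -0.26 in X18 single. In X14 it went from -0.72 to 0.17 in double and from 0.63 to -0.25 in single.

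The summed levels of 8 families over all 9 days place both ends in the course. WNT ligands were at a mean of 3.85 RPM on day 0 and 15 RPM on day 4, so that most of their rise lay after day 4. DNA methylation genes went from a mean of 1399 RPM on day 0 through 4850 on day 4 to 1630 on day 8, an excursion that the comparison of the ends does not show. These course values carry no test.

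**Figure D5:**
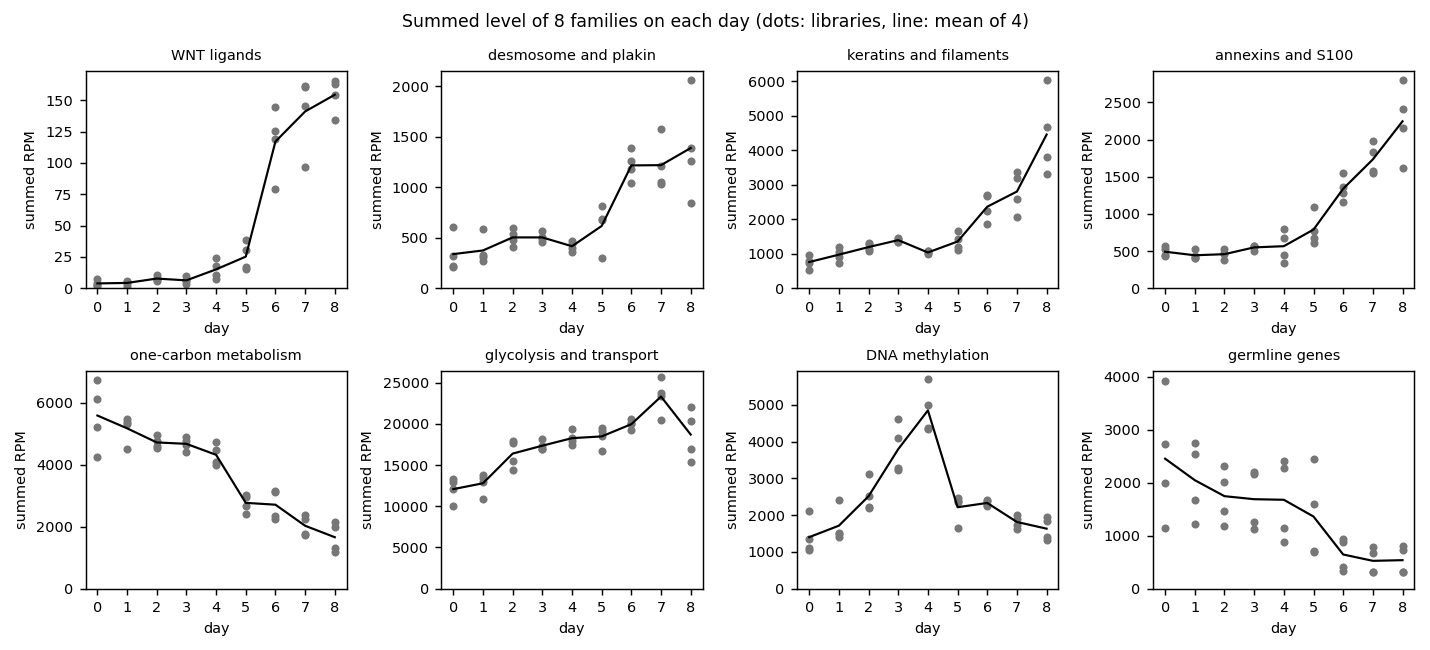
Summed level (RPM, linear axes from 0) of 8 families on days 0 to 8, with 1 point per library and a line through the mean of the 4 libraries of each day. The DNA methylation genes peak in the middle of the course, and the WNT ligands stay low until after day 4.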

How the data were processed

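RNA was sequenced from 36 libraries of differentiating mESCs, of which the 8 of days 0 and 8 are compared. The authors trimmed single-end reads, aligned them to mm10 (the submitters' notes name TopHat2 2.0.12 and bcl2fastq) and quantified genes in SeqMonk. The deposited table holds log2 values that behave as log2 RPKM, with 0 reads written as 0.9 read. Whole reads were recovered for 100% of values (largest distance from a whole read 0.0275), which gave RPM; limma voom on these reads called 5106 genes. Read totals and floors are given with the results.

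From the deposited log2 values, libraries were scaled to a common 75th percentile and fitted with limma 3.58.1 in R 4.3.3 (lmFit and eBayes with trend, day as the factor, all 36 libraries, 14612 genes with at least 1 RPM in at least 4 libraries). Calls needed a Benjamini-Hochberg adjusted p under 0.05, two-sided, and a log2 fold change of at least 1. The scripts were tested on simulated data. Genes were named by a rule: in each class the 3 largest rises and falls called, of the same sign in each of the 4 pairs, with 10 RPM or more on the higher day, at most 1 a family, and in each family up to 4 called genes in each direction plus fixed anchors; a few of these are not reported here. Members, lists and rules were chosen with earlier results of these data known.

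Same-numbered libraries share a line, and the correlations of their deviations between days 0 and 8 were 0.304, 0.017, 0.163 and 0.235 for replicates 1 to 4. The fit with the replicate block was therefore run beside the main one. Removal of the length trend (lowess, span 0.3) and the fits without both day 0 libraries of a line were added after the data were seen, as were the block without both X14 libraries of day 0 and the comparison of the lines without the labels double and single. No 2 libraries of a day agreed within sampling noise.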

Additional observations from a re-analysis of the deposited data

Results flagged for a closer look

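Tdh, the threonine dehydrogenase, was at 0.800 RPM in the X18 double library of day 8, and the other 3 libraries of that day lay between 7.98 and 12.3 RPM. On the log2 scale, not in RPM, the gap was 0.842 of the day's range, above Dixon's 95% critical value for 4 samples. The low value lay under that library's floor of 3 reads (2.40 RPM), so counting error weighs on it. Of 57 groups examined in this way 1 stood out, and chance alone gives about 1 in 20.

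In 5 genes the lines had an unequal day 8 minus day 0 difference (X18 minus X14, in log2, limma with an interaction term). The difference was 2.99 for Anxa2 (SE 0.54, adjusted p = 0.0415), 1.46 for the pluripotency gene Utf1 (SE 0.26, adjusted p = 0.0415) and 1.77 for Egln3, a prolyl hydroxylase (SE 0.27, adjusted p = 0.0172). It was 3.56 for Celf4, an RNA-binding protein of neurons (SE 0.64, adjusted p = 0.0415), and 3.20 for AC122807.1, whose entry overlaps Gm17344 (SE 0.59, adjusted p = 0.0459). The count of 5 moved with the libraries and settings, as given with the dependence on the processing.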

How the results depend on the processing

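Against 5046 genes called, 4324 to 5741 were called with any one library left out, of which 4099 to 4756 were shared with the same sign. With only the 8 libraries of days 0 and 8 in the fit, 4045 of the 5046 calls were kept with the same sign. With the replicate block 5195 were called (2977 higher and 2218 lower, 5035 shared), which changed the calls of Egr1, Spry4, Lif and Mael among the genes named. Without the scaling 68.15% of called genes were higher, with quantile normalization 50.4%, against 57.63%. With a mean of at least 10 RPM required, 3308 genes were called, 1159 of them lower, and 103 signalling genes. Line X14 alone gave 2885 (1717 higher and 1168 lower), with 93 metabolism and 71 chromatin genes. Without both X18 libraries of day 0, 110 metabolism genes were called. Zeb2 and Wnt5a, both called higher (log2 fold changes 1.72 and 1.51), changed sign in line X18 alone, to -0.24 and -0.16, where Zeb2 had 0 reads and Wnt5a 1 read, against 3.68 and 3.18 in X14. The difference between the lines had adjusted p = 0.0785 and 0.169. Genes that differed between the lines numbered 20 without the scaling, 1 with quantile normalization, 8 without a filter, 3 on log2(RPM + 1), 0 over only the 8 libraries, 2 with limma voom on recovered reads, 1 with the length trend removed and 1 without the term for the labels double and single. With any one library left out they numbered 0 to 117. The cause of these shifts was not tested. The depth leaves genes near the floor undecided.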

Other observations

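Several genes had their highest level between the ends that were compared. Otx2, a factor of the primed epiblast, was at a mean of 271 RPM on day 4, against 0.554 ± 0.834 RPM on day 0 and 41.7 ± 27.8 RPM on day 8. Lef1, a nuclear factor of WNT signalling, was at 119 RPM on day 4, against 18.9 ± 11.7 RPM on day 0 and 4.18 ± 4.67 RPM on day 8. The feedback gene Spry4 was at 59.9 RPM on day 4, against 0 RPM on day 0 and 4.04 ± 5.19 RPM on day 8. Utf1 was at a mean of 393 RPM on day 4, against 43.0 RPM on day 0 and 76.2 RPM on day 8. No test was run on day 4.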
